A study of Canis lupus familiaris with 4 samples.

Results

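miR-221 and miR-222 are a pair of miRNAs made from neighboring hairpins, and their rows were followed here in the small RNA of extracellular vesicles (EVs) from 2 canine mammary carcinoma cell lines. They are the rows named cfa-mir-221 and cfa-mir-222, chosen by name, 2 of the 673 rows of the deposited table, of which 508 are known dog miRNAs and the rest were predicted from these reads. The cell lines are CHMp, from a primary mammary gland adenocarcinoma, whose EVs the study calls pTDEs, and CHMm, from a metastasis of the same dog, whose EVs it calls mTDEs. Each cell line has 2 libraries, replicates 1 and 2, with no treatment beyond the change to serum-free medium that both lines received before EVs were collected by ultrafiltration and ultracentrifugation. Each group is thus 1 cell line from 1 animal. The study calls the replicates biological, and the labels do not say whether they were separate cultures, so p-values measure only the spread between these libraries.

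miRNAs are short RNAs that pair through their seed, bases 2 to 8, with messenger RNAs and lower their translation or stability. miR-221 and miR-222 share a seed and are transcribed together, so they are taken to act on the same targets, among them the cell cycle inhibitor CDKN1B (p27), the estrogen receptor gene ESR1, the receptor kinase KIT and TRPS1, a repressor of the mesenchymal regulator ZEB2. In human breast cancer they are known for high levels in basal-like, estrogen receptor-negative and mesenchymal-type cells. The comparison asks whether their level in EVs differs between a primary tumor line and a metastatic line.

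The deposited table gives names only, so the sequences are shown from the study's list of miRDeep2 predictions, which holds both loci in the opposite orientation. Of the 1045 predictions in that list, 2 read in reverse complement carry the seed GCUACAU, and both lie on chromosome X. They are printed in reverse complement, 5′ to 3′, with the seed in capitals. The names miR-221 and miR-222 were given to them from background knowledge of these miRNAs, since no miRBase sequence was used here.
miR-221: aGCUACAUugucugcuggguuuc
miR-222: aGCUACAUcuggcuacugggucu
Both have 23 bases. The authors kept reads of 22 to 30 bases after trimming, so a prediction from these reads had to lie in that window. They share their first 8 bases without a break, and 11 of 23 positions when set base against base without gaps. Likeness that needs a shift of bases is not counted in this. Whole reads of one miRNA differ from those of the other.

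The predicted precursors are shown because they place the pair on the genome and show both arms of each hairpin. In CanFam3.1 the miR-221 precursor lies at chrX:39523889-39523951 and that of miR-222 at chrX:39524538-39524598, with 586 bases between them. The list gives both on the plus strand, and they are printed here in reverse complement, on the minus strand, with the mature miRNA in capitals.
miR-221 precursor: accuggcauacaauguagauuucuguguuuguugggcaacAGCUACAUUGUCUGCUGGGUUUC
miR-222 precursor: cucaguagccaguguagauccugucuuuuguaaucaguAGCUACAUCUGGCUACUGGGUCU
In both hairpins the mature miRNA is the 3′ arm. RefSeq (assembly UU_Cfam_GSD_1.0) lists MIR221 and MIR222 as miRNA genes on chromosome X with 0 listed genes between them, both within the span of the long noncoding RNA gene LOC111094885. Neither chromosome X prediction is among the 165 predicted miRNAs that the study named, and 0 of those 165 carry the seed in either orientation. The authors merged forward and reverse reads before prediction; whether reads in the reverse orientation entered the deposited values was not tested.

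The deposited whole numbers have the spacing of log2(CPM + 1) scaled by a factor that differs between libraries, where CPM are counts per 1000000 reads, and all levels here are the CPM recovered by undoing that scaling. By the spacing of their low values, the rows summed to 6296387 and 5053602 reads in pTDEs and 3457024 and 2330263 in mTDEs. Copies of 1 miRNA have rows of their own, so a read may be counted in several rows. With identical rows counted once, 296 of the 326 rows tested below remained. Shares of a library are shares of the summed reads of its miRNA rows, not of all reads sequenced. The row with the highest level, miR-21, made up 22.5% to 37.8% of a library. Across all 673 rows the log2 levels of the mTDE replicates correlated with each other (Pearson's r = 0.897, across miRNAs, which are not independent) about as closely as with the pTDE libraries (0.889 to 0.905), while the pTDE replicates correlated at 0.973. Of these rows, 461 were above 0 in any library, and the rows at 0 in all libraries can raise each of these correlations. Libraries were sequenced on 2 instruments, and the library run on each is not named in the sources used here. Fixed marker lists were read for the labelled cell type. All 7 epithelial miRNAs were above 0 in both mTDE libraries, with a summed level of 23718 and 26413 CPM. In pTDEs the same list summed to 73.9 and 104 CPM, with 4 of the 7 (miR-200a, miR-200b, miR-429 and miR-141) listed at 0 in both libraries and miR-200c, miR-205 and miR-203 above 0 in both.

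miR-222 was among the most abundant miRNAs in EVs of both cell lines. cfa-mir-222 was at 23057 and 27096 CPM in pTDE replicates 1 and 2 and at 19913 and 42778 CPM in mTDE replicates 1 and 2. The lowest and the highest value were both from mTDEs, so the pTDE libraries lay between the mTDE libraries and the cell lines overlapped. It ranked 5 and 5 among the 342 and 347 rows above 0 in the pTDE libraries, and 13 and 4 among the 306 and 332 rows above 0 in the mTDE libraries. The mean was 25076 ± 2856 CPM over the pTDE libraries and 31346 ± 16168 CPM over the mTDE libraries (SD, n = 2).

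miR-221 was less abundant than miR-222 in all 4 libraries and had the same highest library. cfa-mir-221 was at 9467 and 8058 CPM in pTDE replicates 1 and 2 and at 7936 and 17859 CPM in mTDE replicates 1 and 2. mTDE replicate 2 was the highest, mTDE replicate 1 and pTDE replicate 2 were the lowest and nearly level, and the cell lines overlapped. It ranked 18 and 23 in the pTDE libraries and 23 and 14 in the mTDE libraries. The mean was 8762 ± 996 CPM over the pTDE libraries and 12897 ± 7017 CPM over the mTDE libraries (SD, n = 2). Between the mTDE libraries, counting error was far smaller than the difference. In mTDE replicate 1, 27433 reads of miR-221 made up 0.794% of the library (95% Wilson interval 0.784% to 0.803%), and in mTDE replicate 2, 41617 reads made up 1.79% (1.77% to 1.80%). The interval of miR-221 in pTDE replicate 2, 0.798% to 0.814%, overlapped that of mTDE replicate 1, so these libraries were not told apart by counting. For miR-222 the intervals were 1.98% to 2.01% and 4.25% to 4.30% in the same libraries. These intervals hold the error of counting and nothing else, because PCR copies of a molecule are counted as separate reads. A miRNA at 3 reads, the limit taken for a row listed at 0, would have 0.476 to 1.29 CPM, so that both miRNAs were at least 9144-fold above the limit in every library.

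**Figure D1:**
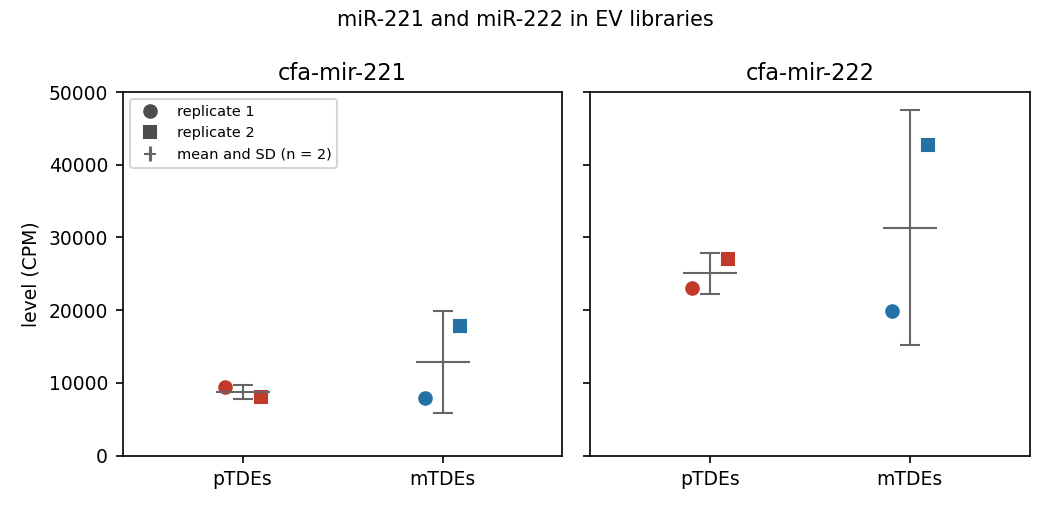
Level in CPM of cfa-mir-221 (left) and cfa-mir-222 (right) in each library of pTDEs (red) and mTDEs (blue); circles are replicate 1, squares replicate 2, gray bars the mean and SD (n = 2). mTDE replicate 2 is the highest library for both (17859 and 42778 CPM), and mTDE replicate 1 lies at the low end, for miR-221 nearly level with pTDE replicate 2.

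The comparison of pTDEs with mTDEs called neither miRNA. The log2 fold change (pTDEs over mTDEs, on log2(CPM + 1)) was -0.45 for miR-221 (standard error 0.50, limma adjusted p = 0.65) and -0.22 for miR-222 (standard error 0.48, limma adjusted p = 0.81). The 95% interval of the difference for miR-221 ran from -1.79 to 0.90, that is, from a level 3.46-fold higher in mTDEs to a level 1.86-fold higher in pTDEs. For miR-222 it ran from -1.51 to 1.07, from 2.85-fold higher in mTDEs to 2.09-fold higher in pTDEs. Differences within these bounds were not told apart from 0 by these libraries, and equal levels were not shown. Of the 2 miRNAs, 0 passed an adjusted p under 0.05 with limma, 0 an unadjusted p under 0.05 and 0 an adjusted p under 0.05 with limma voom on recovered reads. Over all 326 rows tested, 1.84% passed the adjusted threshold, 19.6% the unadjusted one and 4.91% the adjusted threshold with voom. The libraries of the cell lines overlapped for both miRNAs, whereas 53.4% of all rows tested did not overlap. That share includes rows at 0 in both libraries of 1 cell line, which passed the row filter only through the other and could not overlap. With 2 libraries against 2, a random order alone would give no overlap at a rate of 0.333.

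The sign of both fold changes rested on mTDE replicate 2. Without that library the log2 fold change was 0.14 for miR-221 (limma adjusted p = 0.82) and 0.33 for miR-222 (limma adjusted p = 0.59), and without mTDE replicate 1 it was -1.03 and -0.78 (limma adjusted p = 0.28 and 0.34). With a library left out, the lone library of a group is assumed to vary like the other group. By size, 20.6% of the rows tested had a smaller fold change than miR-221 and 10.7% a smaller one than miR-222, and the median size over all rows was 0.95. These rows include many of low level and some at 0 in both libraries of 1 cell line. The pair was not compared with rows of similar level alone, so these shares do not show it to be unusually unchanged.

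**Figure D2:**
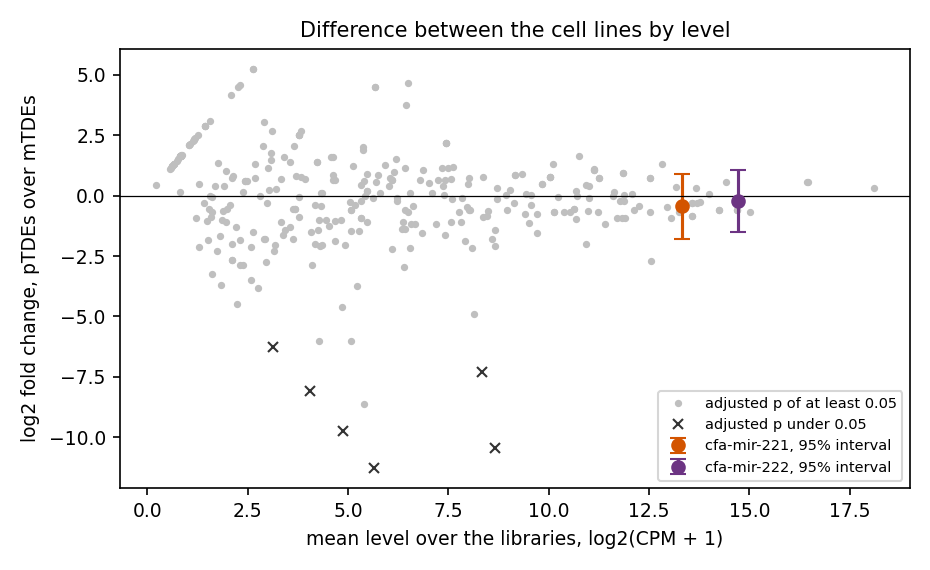
Log2 fold change of pTDEs over mTDEs against the mean level in log2(CPM + 1) for the 326 rows tested; gray points had an adjusted p of at least 0.05, crosses one under 0.05, and bars on cfa-mir-221 and cfa-mir-222 are 95% intervals. Both miRNAs lie at the abundant end near 0 (-0.45 and -0.22), with intervals that cross 0.

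Other miRNAs also differed between the mTDE replicates. In mTDE replicate 2, miR-221 was 1.17 and miR-222 1.10 higher than in mTDE replicate 1 on the log2 scale, and the median over the 240 rows with at least 10 reads in both was 0.62. Of those rows, 33.3% were higher in replicate 2 by at least as much as miR-221, and 36.7% by at least as much as miR-222. Between the pTDE replicates, the log2 difference (replicate 2 minus replicate 1) was -0.23 for miR-221 and 0.23 for miR-222, against a median size of 0.64 over 267 rows. Of the markers of other cell types, the blood list and miR-122 were highest in mTDE replicate 2, and the muscle list and miR-126 were not. The summed level of the 6 blood miRNAs in the table, of which miR-144 was listed at 0 in all libraries, was 3018 CPM in mTDE replicate 2, and 706 CPM in mTDE replicate 1, 261 and 893 CPM in pTDE replicates 1 and 2. miR-122, a miRNA of liver and serum, was at 570 CPM in mTDE replicate 2 and at 98.5 to 364 CPM in the others. The muscle list summed to 286 and 389 CPM in pTDEs and 19.7 and 149 CPM in mTDEs, and miR-126, of endothelium, to 0 CPM in mTDE replicate 1 and 3.49 to 30.8 CPM elsewhere. The part of these in the levels of miR-221 and miR-222 was not tested.

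Set against the typical miRNA of the same library, the pair varied less. Relative to the median of the 231 rows found in all libraries, miR-222 was 152-fold and 175-fold higher in pTDE replicates 1 and 2 and 149-fold and 177-fold higher in mTDE replicates 1 and 2. For miR-221 the same measure was 62.5-fold and 52.2-fold in pTDEs and 59.2-fold and 73.7-fold in mTDEs. The highest library exceeded the lowest by 1.19-fold for miR-222 on this measure, against 2.15-fold in CPM, and by 1.41-fold for miR-221, against 2.25-fold in CPM. With median-ratio size factors, which moved the median log2 fold change of all rows tested from -0.03 to 0.22, the log2 fold change was -0.21 for miR-221 and 0.02 for miR-222 (limma adjusted p = 0.80 and 0.98), so that the sign for miR-222 depended on the scaling. Against miR-21, the most abundant miRNA, miR-222 amounted to 6.10% and 10.2% in pTDEs and 7.10% and 19.03% in mTDEs. miR-221 amounted to 2.50% and 3.04% of miR-21 in pTDEs and 2.83% and 7.95% in mTDEs. On this measure, too, mTDE replicate 2 was the highest library for both.

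Because the pair carries 1 seed, its summed level gives the share of the summed reads of all rows with that seed from these rows. The sum made up 3.25% and 3.52% of the CPM of the pTDE libraries, and 2.78% and 6.06% of those of mTDE replicates 1 and 2. It thus lay between 2.78% and 3.52% in 3 of 4 libraries, and mTDE replicate 2 stood 2.18-fold above the other mTDE library. On the log2 scale the difference was -0.28 (pTDEs minus mTDEs), with an exact two-sided permutation p of 1, where 2 libraries against 2 can give no p below 0.333. With median-ratio size factors the difference was -0.040.

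The ratio of miR-222 to miR-221 within a library, which does not change when all CPM of the library are multiplied by a factor, was nearly constant in 3 libraries and higher in the other. The ratio was 2.44 in pTDE replicate 1 and 3.36 in replicate 2, while the mTDE libraries had 2.51 and 2.40. miR-222 made up 77.1% of the reads of the pair in pTDE replicate 2 (95% Wilson interval 76.9% to 77.3%), 70.9% in pTDE replicate 1 (70.7% to 71.1%), 71.5% in mTDE replicate 1 (71.2% to 71.8%) and 70.5% in mTDE replicate 2 (70.3% to 70.8%). The higher ratio stood in a single library. These intervals cover counting only, and that of mTDE replicate 1 does not overlap those of the libraries with similar ratios either. The mean log2 ratio was 1.52 ± 0.33 in pTDEs and 1.29 ± 0.05 in mTDEs (SD, n = 2), a difference of 0.22 with an exact two-sided permutation p of 0.667. Without pTDE replicate 2 the difference was -0.0096. The mTDE replicates had nearly the same ratio, although miR-221 was 2.25-fold and miR-222 2.15-fold higher in replicate 2. A ratio of reads between different miRNAs also carries the ligation and amplification preferences of the library kit and is not a ratio of molecules.

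Compared with other miRNAs that are made from 1 transcript, the pair kept a narrow ratio across the libraries. Of 25 listed pairs, 17 had both rows above 0 in all libraries. The log2 ratio of miR-222 to miR-221 ranged over 0.49 across the 4 libraries, rank 3 from the narrowest, and the median range of the other 16 pairs was 1.84. The 2 narrower pairs were miR-192 with miR-194 (0.43) and miR-18a with miR-19a (0.45), and the next wider ones were miR-182 with miR-183 (1.14), miR-93 with miR-25 (1.20), miR-379 with miR-411 (1.54) and miR-23a with miR-27a (1.71). The widest was miR-374b with miR-421, at 4.98. These ranges are a description over 4 shared libraries. The pairs differ in depth, from at least 27433 reads in each library for the rows of miR-221 and miR-222 to as few as 24 for a row of another pair.

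**Figure D3:**
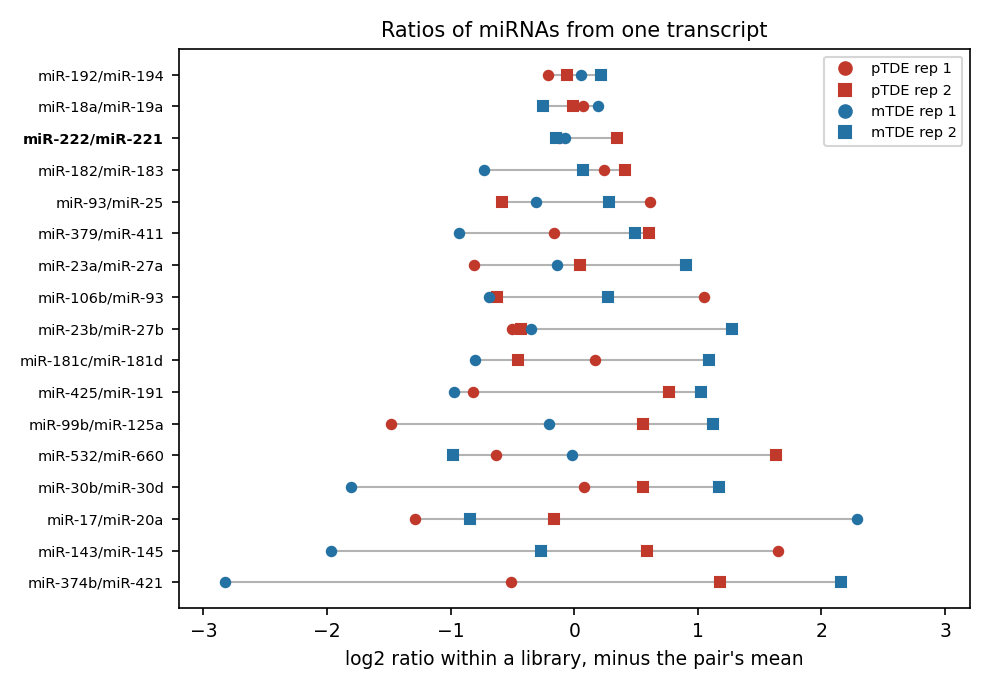
Log2 ratio of 2 miRNAs of 1 transcript within each library, minus the mean of the pair, for 17 pairs ordered by range; red is pTDEs, blue mTDEs, circles replicate 1 and squares replicate 2. The miR-222/miR-221 pair (bold) spans 0.49, with pTDE replicate 2 apart from the other 3 libraries.

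The pattern over libraries was looked up for likeness among the other 324 rows tested, by the root mean square difference of log2(CPM + 1) over the 4 libraries after each row was centered on its mean. The difference between miR-221 and miR-222 themselves was 0.20, against a median of 0.87 from miR-221 to all other rows and 0.88 from miR-222. miR-222 was the row of rank 4 by likeness to miR-221, and miR-221 that of rank 5 to miR-222, of 325. The rows most like the mean of the pair were cfa-mir-103-1 (0.12), cfa-mir-103-2 (0.13, another copy of the same miRNA that the counting may not separate from it), cfa-mir-185 (0.17), cfa-mir-148b (0.19) and the predicted cfa_novel_1 (0.21). Each of them was highest in mTDE replicate 2. cfa-mir-103-1, for example, was at 3624 and 2941 CPM in pTDE replicates 1 and 2 and at 2511 and 5738 CPM in mTDE replicates 1 and 2, at a lower level than either miRNA of the pair. None of the 5 had a limma adjusted p under 0.05 (0.60 to 0.83). With 4 libraries the measure describes these libraries only.

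**Figure D4:**
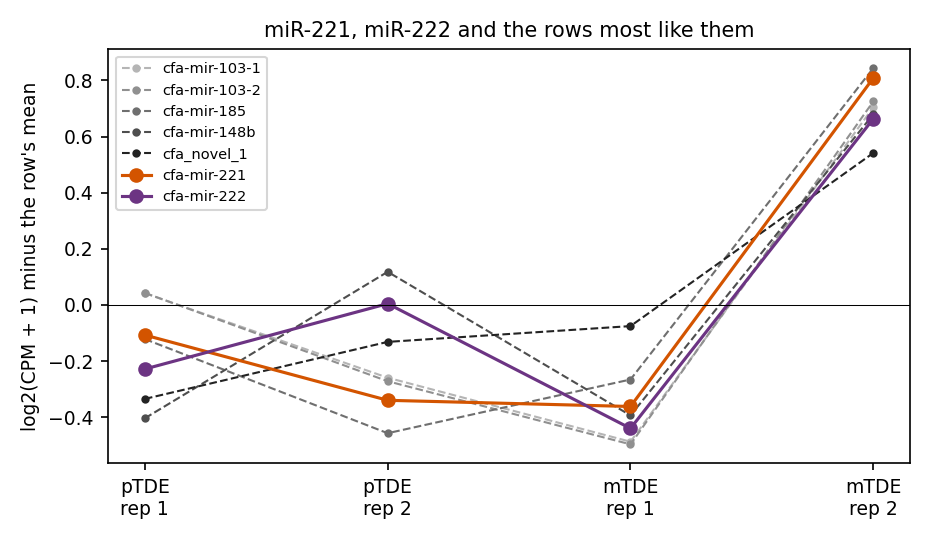
Level in log2(CPM + 1) minus the mean of the row in each library for cfa-mir-221, cfa-mir-222 and the 5 rows most like them; lines only join the points of 1 row, and libraries have no order. All 7 rows are highest in mTDE replicate 2, and miR-221 and miR-222 part most in pTDE replicate 2.

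By mean level over the 4 libraries, miR-222 was the row of rank 5 and miR-221 that of rank 20. The rows beside miR-222 were cfa-mir-30d (35593 ± 15523 CPM, SD over 4 libraries) above it and cfa-mir-92a-1 (27048 ± 6919 CPM) below it. Both were within its spread (28211 ± 10147 CPM). The rows beside miR-221 (10830 ± 4738 CPM) were cfa-mir-8859a (11011 ± 7198 CPM) and the predicted cfa_novel_148 (9539 ± 9060 CPM), likewise within its spread. The order changed with the library. In mTDE replicate 1, cfa-mir-30d was at 58179 CPM against 19913 CPM for miR-222, and in mTDE replicate 2 it was at 30449 CPM against 42778 CPM.

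Other miRNAs linked to mesenchymal or basal-like breast cancer cells were read beside the pair from a fixed list of 13, of which 12 names matched a row, the pair included. Of the 12, 0 passed limma's adjusted threshold in either direction, where 1.84% of all rows tested passed it. The cell lines did not overlap for 4 of the 12 (33.3%), the rate that a random order of 2 libraries against 2 would give. Over all rows tested it was 53.4%, which includes rows at 0 in both libraries of 1 cell line. Their log2 fold changes ran from -1.18 to 2.20 with a median of -0.25, against -0.03 over all rows tested. The most abundant after miR-222 were cfa-mir-10b, a miRNA linked to invasion, and cfa-mir-125b-1, of the miR-125 family. cfa-mir-10b was at 6397 and 22699 CPM in pTDEs and 12580 and 17628 CPM in mTDEs, and cfa-mir-125b-1 at 13209 and 9221 CPM in pTDEs and 24508 and 7383 CPM in mTDEs. Both overlapped between the cell lines, as the pair did. The 4 rows without overlap were higher in pTDEs for 3 and lower for 1, with limma adjusted p from 0.20 to 0.34. cfa-mir-155, which is known in inflammation and TGF-β signaling, was at 9027 and 14316 CPM in pTDEs and 3708 and 5803 CPM in mTDEs. cfa-mir-9-1, which targets E-cadherin, was at 1604 and 1183 CPM in pTDEs and 852 and 749 CPM in mTDEs. cfa-mir-199-1 was at 481 and 286 CPM in pTDEs and 35.0 and 182.4 CPM in mTDEs, so that the mTDE replicates lay far apart. The row that was lower in pTDEs was cfa-mir-22, at 1562 and 2084 CPM in pTDEs and 2427 and 6929 CPM in mTDEs.

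The epithelial list held the largest differences named here. cfa-mir-200c, which represses ZEB1 and ZEB2, was at 15.1 and 6.33 CPM in pTDEs and 14605 and 16067 CPM in mTDEs, a log2 fold change of -10.46 (limma adjusted p = 0.0084). cfa-mir-205, a miRNA of basal epithelium, was at 20.3 and 30.8 CPM in pTDEs and 5041 and 3273 CPM in mTDEs (log2 fold change -7.28, limma adjusted p = 0.0096). cfa-mir-203, of squamous epithelium, was at 38.5 and 66.9 CPM in pTDEs and 950 and 2535 CPM in mTDEs and did not pass (limma adjusted p = 0.054). These 3 were above 0 in all libraries. The other 4, miR-200a, miR-200b, miR-429 and miR-141, were listed at 0 in both pTDE libraries and passed the row filter only through mTDEs, so they had to differ. Taking the 3-read limit in pTDEs and the lower mTDE library, they were at least 128-fold (miR-141) to at least 2943-fold (miR-429) lower in pTDEs, and their fitted fold changes depend on the pseudocount. With them, limma called 6 of the 7 members lower, which are all the rows called among the 326 tested (1.84%). Without either mTDE library 0 of the 7 were called, as were 0 of all rows. Without pTDE replicate 1 or 2, 3 and 2 of the 7 were called lower, beside 1.23% of all rows called lower and 12.6% called in either direction in each of these fits. The 95% intervals of miR-221 and miR-222 reach no further than -1.79 and -1.51. In bulk EVs, fewer vesicles that carry a miRNA and less of it in each vesicle cannot be told apart.

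**Figure D5:**
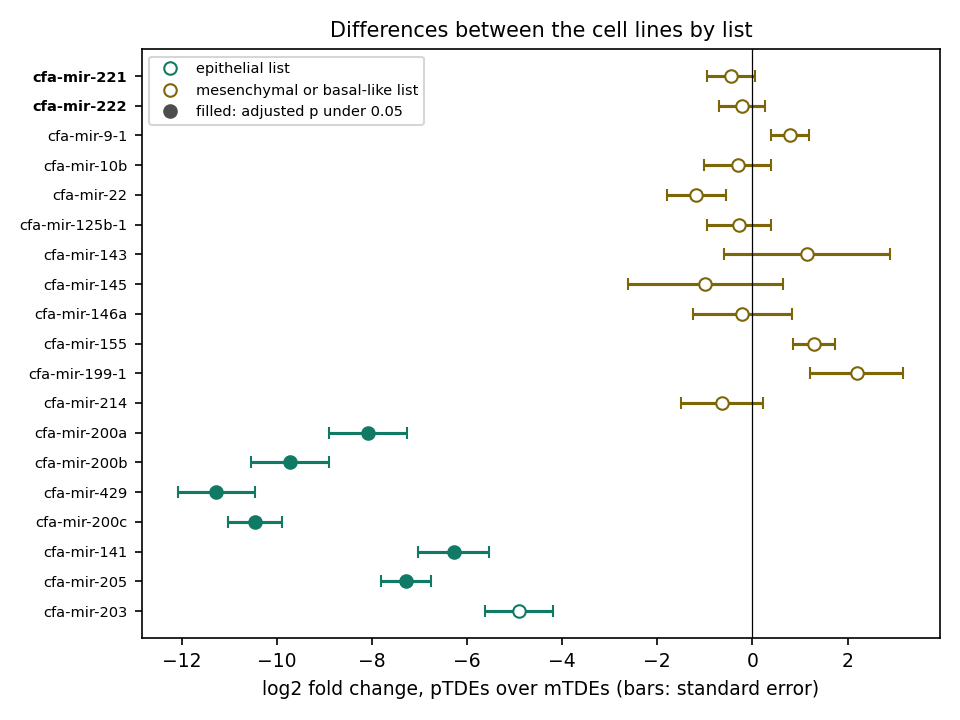
Log2 fold change of pTDEs over mTDEs with its standard error for the 12 mesenchymal or basal-like rows (brown; cfa-mir-221 and cfa-mir-222 in bold) and the 7 epithelial rows (green); filled symbols had a limma adjusted p under 0.05. The 6 filled symbols are all epithelial, 4 of them rows listed at 0 in both pTDE libraries whose position depends on the pseudocount, and the brown symbols run from -1.18 to 2.20.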

How the data were processed

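Per the labels and the paper's methods, EV small RNA was made into libraries with a Nextflex kit, reads were trimmed and selected by length with cutadapt and checked with FastQC, forward and reverse reads were merged, and dog miRBase and predicted miRNAs were quantified with miRDeep2 on CanFam3.1; versions are not given in the sources used here. The deposited per-library values, called CPM by the authors, were treated as a score. Other deposited columns hold the authors' edgeR comparison of the cell lines (log2 fold change, log2 mean CPM, a score called LR, a p-value and an FDR), and none of them was used.

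CPM were computed as 2 to the power of (score / s), minus 1, with s set per library for a total of 1000000. Rounding of the score limits a level to within 0.070% to 0.081%. The worth of 1 read was the largest step of which all distinct values under 20 CPM were whole multiples within rounding. Python 3.11.15, numpy 2.4.6, pandas 2.3.3 and scipy 1.17.1 were used, and limma 3.58.1 in R 4.3.3 on log2(CPM + 1) with eBayes and a trend, on the 326 rows with a value over 0 in both replicates of CHMp or of CHMm, with Benjamini-Hochberg adjustment. The prior degrees of freedom were 2.4. Ratio and sum were compared by exact permutation over libraries. The conversion was run on values simulated in the form it assumes, which cannot test whether the deposited values have that form. The limma fit was run on counts simulated with 1 dispersion for all libraries, unlike the replicates here. The same replicate number links no libraries by the labels.

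Alternatives were pseudocounts of 0.1 and 5 CPM, other row filters, known miRNAs only, identical rows counted once, the deposited values as CPM, median-ratio size factors, no trend, limma voom, a replicate block and leaving out each library. Named miRNAs were the pair, rows beside it by mean level, the 5 rows most like it, the 6 pairs closest in range, list members that passed the test or were most abundant, and marker lists; miR-21, cfa-mir-155, cfa-mir-9-1, cfa-mir-199-1, cfa-mir-22, cfa-mir-203 and the pair miR-374b with miR-421 were named after their values were seen. The members and lists were chosen with earlier results of these data known. Sequences are from the study's list of predictions.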

Additional observations from a re-analysis of the deposited data

How the results depend on the processing

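Neither miRNA passed an adjusted p of 0.05 under any alternative run. The log2 fold change of miR-221 of -0.45 stayed negative in 10 of 11 alternatives that kept all libraries, and that of miR-222 of -0.22 in 9 of 11 (limma adjusted p from 0.60 to 0.80 and from 0.53 to 0.98). With the deposited values taken as CPM, miR-221 turned to 0.070, miR-222 to 0.096 and their sum, at -0.28, to 0.084. That setting takes logs of values that are already on a log scale. With median-ratio size factors, miR-222 turned to 0.018. Leaving out each library in turn gave -1.03 to 0.14 for miR-221, -0.78 to 0.33 for miR-222, -0.84 to 0.28 for the sum and -0.0096 to 0.46 for the log2 ratio of 0.22. Both miRNAs and their sum were positive only without mTDE replicate 2, and the ratio was negative only without pTDE replicate 2. In the alternatives that kept all libraries the log2 ratio was from 0.026, with the deposited values taken as CPM, to 0.22.

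Rows called higher in pTDEs numbered 0 with limma (33 at an unadjusted p under 0.05), 39 when the deposited values were read as CPM, 28 at a pseudocount of 0.1 CPM, 5 with voom, 5 after median-ratio scaling, 4 when no trend was fitted and 4 among known miRNAs alone. Rows called lower numbered 6 (31 at an unadjusted p under 0.05), but 11 with voom, 11 at a pseudocount of 0.1 CPM and 11 when the deposited values were read as CPM. Without 1 library the calls ran from 0 to 37 higher and from 0 to 4 lower: 37 and 4 without either pTDE library, and 0 and 0 without either mTDE library. Apart from the fewer rows or libraries in a fit, the cause was not tested.

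With the replicate block, the log2 fold changes were -0.45 and -0.22 (limma adjusted p = 0.64 and 0.80), and 7 rows were called lower. The log2 ratio difference of 0.22 and the sum difference of -0.28 have the same values with the block. Same-numbered libraries deviated together with a correlation of 0.15 over 326 rows, and nothing in the labels pairs them. For these abundant miRNAs the counting intervals were far narrower than the differences between the mTDE libraries.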
